A study of Homo sapiens with 39 samples.

Results

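Krüppel-like factors (KLFs) are zinc-finger transcription factors, and 10 of their genes were followed across a set of HCT116 cell lines: KLF2, KLF3, KLF4, KLF5, KLF6, KLF9, KLF10, KLF11, KLF13 and KLF16. They were taken by gene name from the 45435 gene entries present in all 13 expression tables, with no threshold on a measured value. The choice was made with earlier results of these data known, so counts of differences among these genes are descriptions. HCT116 is an established human colorectal cancer line. The study asked how each isoform of HNF4A, a nuclear receptor of liver and gut epithelium, alters the transcriptome. The parental group was the HCT116 Flp-In host line without an HNF4A construct, maintained earlier in blasticidin S and zeocin. The other groups were 12 stable lines, each holding 1 copy of 1 HNF4A isoform with GFP at its C-terminal end, maintained earlier in blasticidin S and hygromycin B. All groups, parental cells included, received doxycycline at 2.5 µg/ml for 48 h, and the selection drugs were taken away at that time. There were 3 RNA-seq libraries for each group. GFP alone was expressed in no group and each isoform was represented by 1 line, so an isoform, its GFP tag, the earlier drug and the derivation of its line cannot be told apart in a comparison with the parental cells.

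KLFs bind GC-rich DNA, the GC box and the related CACCC box, through zinc fingers at their C-terminal end, which they share with the SP factors. Their N-terminal parts differ and recruit either activators or repressors: KLF3 binds the corepressor CtBP, and KLF9, KLF10, KLF11, KLF13 and KLF16 bind the corepressor SIN3A. In the intestinal epithelium KLF5 marks dividing crypt cells, whereas KLF4 marks differentiated cells that have left the cell cycle. KLF6 and KLF2 are also known as brakes on growth in many cell types, and several KLF genes respond quickly to growth factors or stress.

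The libraries had between 27884 and 30550 genes above 0 TPM. TPM is transcript abundance corrected for length and scaled to a fixed sum per library, so a level of 1 gene can be compared with that of another. Read depth per library is not known from TPM, nor from the authors' mean normalised counts, which are pooled over libraries. HNF4A, on chromosome 20 from 44355700 to 44434596 (GRCh38), averaged 31.5 TPM ± 0.589 (SD, n = 3) without a construct and had mean levels from 614 TPM (isoforms 2 and 11) to 1070 TPM (isoform 6) in the lines, and it was higher in 12 of 12 lines by the test used below. Replicate 1 of the isoform 3 line stood apart, its HNF4A level being 407 TPM while replicates 2 and 3 had 833 and 772 TPM. Epithelial markers summed to between 3140 and 3290 TPM in the parental libraries and to between 2560 and 5760 TPM in the lines. By group mean the sum was 3234 TPM in the parental cells, 5581, 4700 and 4425 TPM in the lines of isoforms 1, 7 and 2, 3092 TPM in that of isoform 10, and 2718 to 2958 TPM in those of isoforms 4, 5 and 6, so it moved in part with KLF6, and its part in the KLF results was not tested. Of the markers of other cell types, 4 of 6 fibroblast, 4 of 5 endothelial and 4 of 5 immune genes were under 1 TPM in every library. The endothelial gene above it, PECAM1, moved with KLF4 and KLF6 in some lines, at 2.32 TPM ± 0.29 (SD, n = 3) without a construct, 5.75 ± 0.856 in isoform 1 (called higher at 2-fold), 4.13 ± 0.197 in isoform 2 and 4.24 ± 0.652 in isoform 11, and the summed endothelial markers ran from 2.92 to 3.42 TPM in parental libraries and from 1.96 to 7.01 TPM in the lines. Its part in the KLF results was not tested. In these bulk libraries fewer expressing cells and less RNA per cell cannot be told apart. The labels do not say whether the 3 libraries of a group came from separate cultures, so the p-values measure the spread between these libraries, which may be technical.

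The 10 genes lie on 8 chromosomes (GENCODE, GRCh38, 1-based). KLF6 lies on chromosome 10 from 3775996 to 3785281 on the minus strand, and KLF4 on chromosome 9 from 107484852 to 107490482 on the minus strand. KLF13 lies on chromosome 15 from 31326855 to 31435665 on the plus strand, and KLF2 on chromosome 19 from 16324817 to 16327874 on the plus strand. Promoter sequences were matched by symbol for 8 of the 10 genes (RefSeq, GRCh38.p14), all but KLF3 and KLF10. The bases before the start sites of the 4 of them that differed most in the isoform 1 line are shown, 3 that were higher there and 1 that was lower. Each is given 5′ to 3′ on the gene's strand, at chr10:3785282-3785459, chr9:107489770-107490019, chr15:31326585-31326834 and chr19:16324576-16324816. Those of KLF6 and KLF2 stop where an annotated exon begins, and those of KLF4 and KLF13 are the full 250 bases before the start. The stretches lie before the RefSeq start, which for KLF4 is inside the GENCODE gene interval given above, downstream of its outermost start. Capitals mark the GC box GGGCGG and the CACCC box CCACCC, searched on both strands, the motifs that KLF and SP factors bind.
KLF6: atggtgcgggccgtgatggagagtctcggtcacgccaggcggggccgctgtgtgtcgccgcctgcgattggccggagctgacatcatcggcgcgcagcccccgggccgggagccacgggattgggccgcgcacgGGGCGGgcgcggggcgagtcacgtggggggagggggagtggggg
KLF4: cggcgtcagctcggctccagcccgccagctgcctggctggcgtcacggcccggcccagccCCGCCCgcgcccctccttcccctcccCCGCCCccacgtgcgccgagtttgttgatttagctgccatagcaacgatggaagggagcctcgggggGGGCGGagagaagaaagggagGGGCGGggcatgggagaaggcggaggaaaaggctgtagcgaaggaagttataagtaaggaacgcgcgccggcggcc
KLF13: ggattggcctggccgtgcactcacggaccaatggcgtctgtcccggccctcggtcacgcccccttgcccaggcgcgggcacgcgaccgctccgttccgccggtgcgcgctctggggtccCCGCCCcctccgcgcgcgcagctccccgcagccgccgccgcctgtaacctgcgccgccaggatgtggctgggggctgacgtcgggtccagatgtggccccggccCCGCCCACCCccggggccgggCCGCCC
KLF2: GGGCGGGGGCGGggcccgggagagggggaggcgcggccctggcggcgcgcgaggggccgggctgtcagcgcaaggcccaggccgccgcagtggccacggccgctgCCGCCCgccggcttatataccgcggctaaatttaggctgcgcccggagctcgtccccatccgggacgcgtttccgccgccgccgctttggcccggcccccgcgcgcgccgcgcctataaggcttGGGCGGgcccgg
In the full 250 bases before the start, the GC box had 2 matches in KLF6, of which the second lies in the exon part that is not shown. It had 4 in KLF4, 3 in KLF13, 4 in KLF2 and 7 in KLF16, and the KLF13 window also held 1 CACCC box that overlaps a GC box. KLF9 and the first start site of KLF5 had no GC box there, the second of KLF5 had 2, and the start sites of KLF11 had 2 and 6. For comparison, 42.6% of 35116 promoter windows of this length held a GC box and 31.3% a CACCC box. These shares are not matched for GC content, which was 72.4% in KLF6, 69.2% in KLF4, 78.8% in KLF13 and 80% in KLF2, beside a median of 58% over all windows. It was 32.4% in KLF9. The HNF4-specific motif CAAAGTCCA and the nuclear receptor half-site AGGTCA, again on both strands, had no match in any of the 10 start-site windows of these 8 genes. They were found in 0.325% and 12.1% of all windows. A match is only a match of letters, and its absence says nothing about binding elsewhere.

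In the parental cells KLF16 had the highest level of the 10, at 52.4 TPM ± 1.82 (SD, n = 3), followed by KLF10 at 42.2 ± 2.87 and KLF6 at 38.7 ± 1.11. KLF11, KLF13 and KLF4 were near 20 TPM, KLF2, KLF5 and KLF3 between 13.7 and 16.5 TPM, and KLF9 was lowest at 3.01 TPM ± 0.274. When the isoforms were produced, the family did not move as one. KLF6 had the largest differences and was called higher at 2-fold in 6 lines, none of them of isoforms 4, 5 or 6. By the 1.5-fold rule given below, KLF4, KLF10 and KLF13 were higher in the lines of isoforms 1 and 2, in which KLF2 was lower, and KLF5 was lower in the lines of isoforms 7, 9 and 11. KLF16 stayed within a narrow band in all 13 groups.

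Each line was compared with the parental cells by limma on log2(TPM + 1), over the 15003 genes that averaged 1 TPM or more. A call required a difference of 2-fold or more, or by a second and looser rule 1.5-fold or more, with a p-value under 0.05 after Benjamini-Hochberg adjustment over all genes of that comparison. All 10 KLF genes passed the filter on low values. Of 120 pairs of a KLF gene and a line, 7 were called at 2-fold, all higher, and 21 at 1.5-fold, 16 higher and 5 lower. All 12 comparisons use the same 3 parental libraries and are not independent of each other. Over all tested genes the isoform 1 line had a median of -0.107, and of 0.016 after median-of-ratios scaling, so values in that line sit slightly low on the scale used. In the isoform 1 line 2 KLF genes were called at 2-fold, where 4.52% of all tested genes were. In isoforms 2, 3, 7, 10 and 11 the 1 call was KLF6, beside backgrounds of 3.73%, 0.807%, 2.08%, 1.44% and 1.7%. No KLF gene was called at 2-fold in isoforms 4, 5, 6, 8, 9 and 12, where the background was 0.54%, 0.293%, 0.247%, 1.41%, 0.827% and 0.573%. At 1.5-fold the isoform 1 line had 6 KLF genes called and isoform 2 had 5, beside backgrounds of 15.8% and 12.2%. Isoforms 7, 9 and 11 had 2 each, with 7.15%, 2.99% and 5.89% of all genes called. Isoforms 3, 8, 10 and 12 had 1 each, beside 2.71%, 4.69%, 4.85% and 1.81%. Isoforms 4, 5 and 6 had none, where 1.9%, 1.23% and 0.88% of all genes were called.

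**Figure D1:**
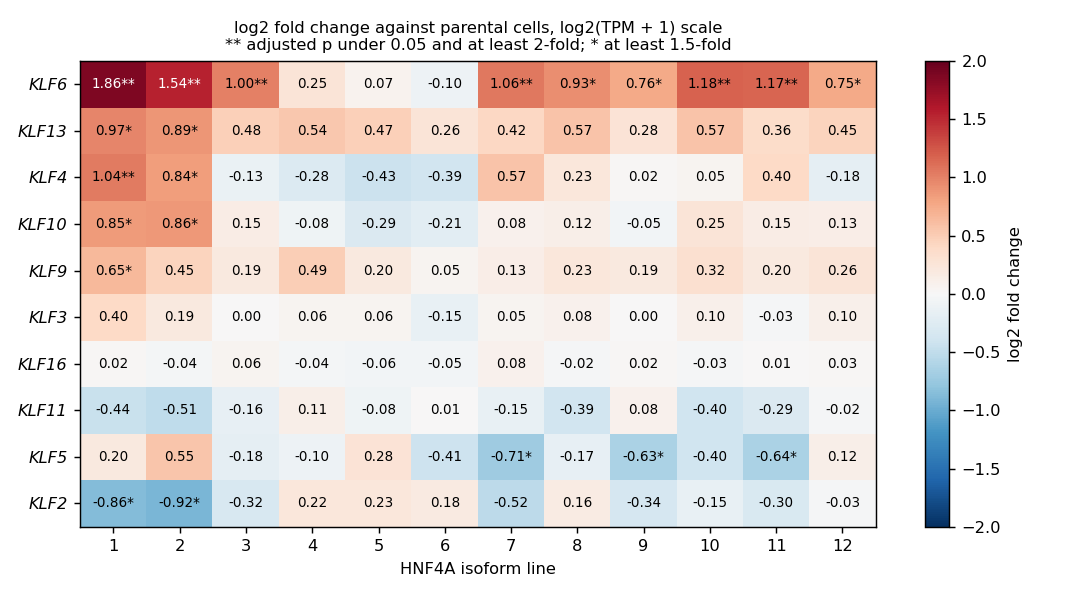
Log2 fold changes of the 10 KLF genes (vertical axis) in the 12 HNF4A isoform lines (horizontal axis) against the parental cells, on the log2(TPM + 1) scale, with red for higher and blue for lower. KLF6 has 6 of the 7 values marked as called at 2-fold, and no value in the columns of isoforms 4, 5 and 6 is marked.

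KLF6, a growth-restraining activator, measured 37.4, 39 and 39.5 TPM in the parental replicates. It measured 145, 131 and 154 TPM in isoform 1 and 119, 110 and 114 TPM in isoform 2. The lowest library of these 2 lines was far above the highest parental one. The log2 fold change was 1.86 ± 0.09 (SE, limma adjusted p = 4.39e-17) in isoform 1 and 1.54 ± 0.09 (limma adjusted p = 4.88e-15) in isoform 2, and the SE is the same in all comparisons of a gene because groups are of equal size.
The libraries of isoforms 10 and 11 had between 84.2 and 91.8 TPM, with log2 fold changes of 1.18 and 1.17 (limma adjusted p = 8.5e-12 and 8.09e-12). Isoform 7 had 79.4, 80.1 and 85.4 TPM, a log2 fold change of 1.06 (limma adjusted p = 5.11e-11), which was 0.99 and no longer called with a pseudocount of 5. These lines too did not overlap with the parental libraries. Isoforms 8, 9 and 12 had between 60.1 and 76.2 TPM in their libraries, and their log2 fold changes of 0.93, 0.76 and 0.75 passed at 1.5-fold and not at 2-fold (limma adjusted p = 1.69e-09, 1.28e-07 and 3.26e-07).
In isoform 3 KLF6 had 61.7, 85.5 and 91.8 TPM, and the lowest is the library with the low HNF4A level. The log2 fold change of 1.00 (limma adjusted p = 5.76e-10) lay at the threshold: it was 1.18 without that library, 0.94 without replicate 2, 0.89 without replicate 3 and 0.98 without parental replicate 1, so the 2-fold call was lost in the last 3 of these. This call was also lost with a pseudocount of 5.
The lines of isoforms 4, 5 and 6 were the exception. Isoform 4 had 45.5, 43.8 and 49.7 TPM, all above the parental libraries, with a log2 fold change of 0.25 (limma adjusted p = 0.0491) that passed neither fold rule. Isoform 5 had 41.6, 38.5 and 41.5 TPM and isoform 6 had 37.6, 34.7 and 35.8 TPM, and both overlapped with the parental range.

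**Figure D2:**
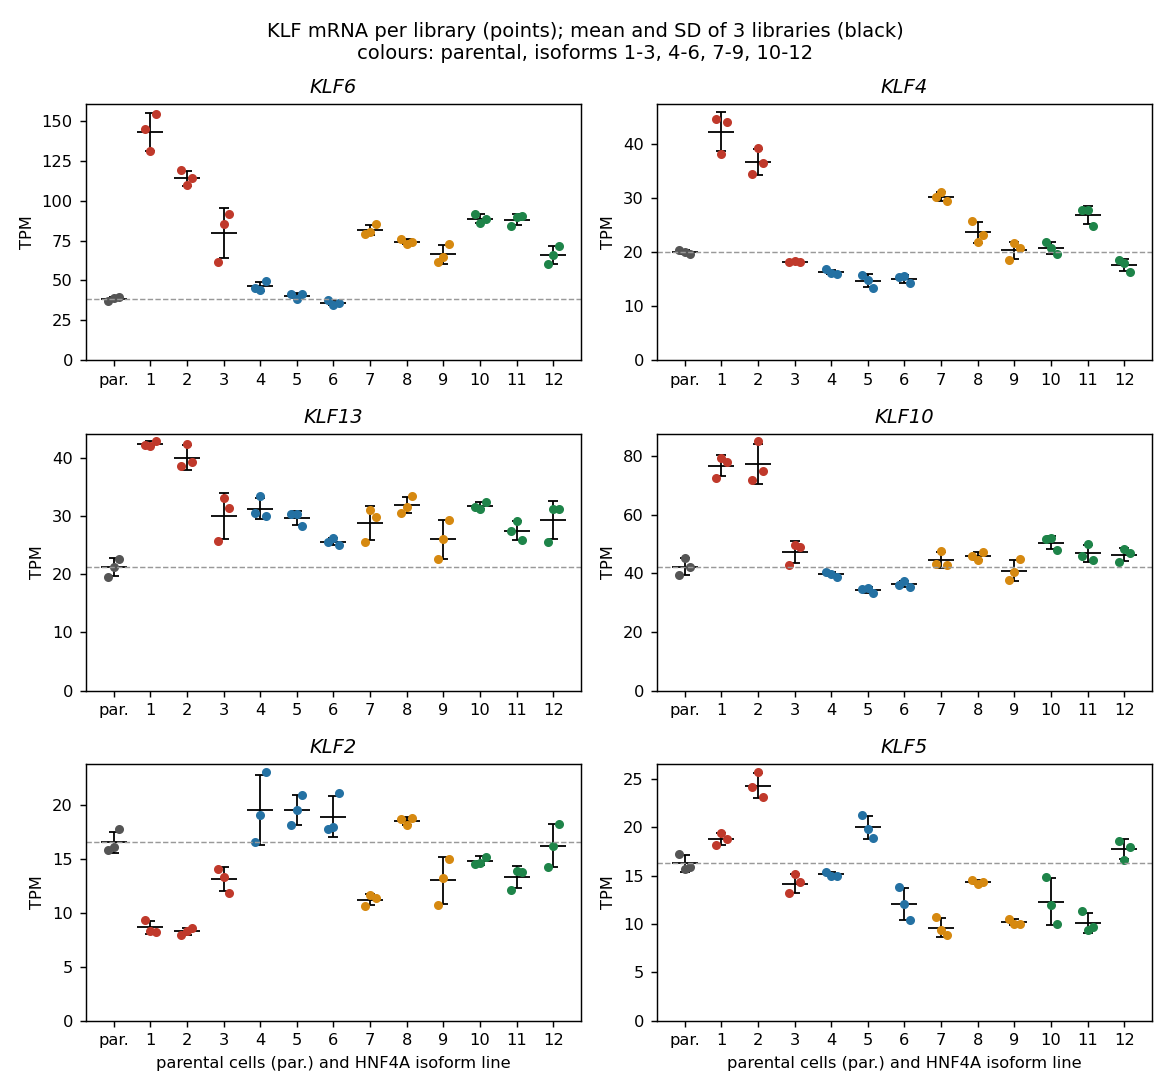
TPM (vertical axes, from 0) of 6 KLF genes in each of the 39 libraries (points) of the parental cells (par.) and the lines of HNF4A isoforms 1 to 12, with the mean and SD of 3 libraries in black and the parental mean as a dashed line. KLF6 ranges from 34.7 TPM in an isoform 6 library to 154 TPM in an isoform 1 library, and KLF2 is lowest in the lines of isoforms 1 and 2.

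KLF4, the factor of differentiated gut epithelium, measured 20.4, 20 and 19.6 TPM in parental replicates, 44.5, 38.1 and 44 TPM in isoform 1, and 34.3, 39.2 and 36.4 TPM in isoform 2. Every library of these lines was above every parental one. The log2 fold change was 1.04 ± 0.07 (SE, limma adjusted p = 7.43e-14) in isoform 1 and 0.84 (limma adjusted p = 1.05e-11) in isoform 2, the second passing only at 1.5-fold. The 2-fold call in isoform 1 was lost with a pseudocount of 5, at 0.91, and just lost without replicate 1 of that line, at 1.00.
KLF4 had values below 0 in other lines, of -0.28 in isoform 4, -0.43 in isoform 5 and -0.39 in isoform 6 (limma adjusted p = 0.00458, 4.89e-05 and 0.00023), all under 1.5-fold. The 9 libraries of these lines ran from 13.3 to 16.8 TPM, all under the lowest parental library. Isoform 7, at 30.1, 31.1 and 29.4 TPM, and isoform 11, at 27.8, 27.8 and 24.8 TPM, lay above the parental libraries with log2 fold changes of 0.57 and 0.40, also under 1.5-fold on the log2(TPM + 1) scale. The isoform 7 value lay just under the limit, and the authors' deposited values for these lines were 0.68 and 0.50.

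KLF5, the crypt counterpart of KLF4, measured 17.3, 15.7 and 15.9 TPM in parental replicates. It fell in isoform 7, with 10.7, 9.34 and 8.83 TPM, in isoform 9, with 10.5, 9.97 and 9.97 TPM, and in isoform 11, with 11.4, 9.43 and 9.65 TPM. None of these libraries reached the parental range. The log2 fold changes were -0.71, -0.63 and -0.64 ± 0.09 (SE, limma adjusted p = 3.21e-07, 5.68e-06 and 2.13e-06), called at 1.5-fold and not at 2-fold. KLF5 was on the other side in isoform 2, at 24.2, 25.7 and 23.1 TPM, with a log2 fold change of 0.55 (limma adjusted p = 8.54e-06) that did not reach 1.5-fold. In the lines of isoforms 7, 9 and 11, where KLF5 was called lower, KLF4 had log2 fold changes of 0.57, 0.02 and 0.40.

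KLF2, a factor of quiescent lymphocytes and endothelium, measured 15.8, 16.1 and 17.7 TPM in parental replicates. It had 9.35, 8.33 and 8.26 TPM in isoform 1 and 7.98, 8.27 and 8.59 TPM in isoform 2, with no overlap. The log2 fold changes were -0.86 and -0.92 ± 0.10 (SE, limma adjusted p = 1.19e-08 and 4.79e-09), called at 1.5-fold. In isoform 7 KLF2 had 10.6, 11.6 and 11.4 TPM, a log2 fold change of -0.52 (limma adjusted p = 9.14e-05) under that limit. Isoforms 4, 5, 6 and 8 had mean KLF2 levels between 18.5 and 19.5 TPM, above the parental mean of 16.5 TPM, but none of these 4 differences passed the test (limma adjusted p from 0.135 to 0.285).

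KLF3, the CtBP-binding repressor, was not called at 1.5-fold in any line. Its parental replicates measured 13.3, 13.9 and 13.8 TPM, and those of isoform 1 19.2, 17.8 and 18.1 TPM, which gave a log2 fold change under 1.5-fold, 0.40 ± 0.07 (SE, limma adjusted p = 1.48e-05). Its other group means lay between 12.3 TPM (isoform 6) and 15.7 TPM (isoform 2).

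Among the SIN3A-binding members, KLF10 and KLF11 are both known as genes induced by TGF-beta, and they differed in sign in the lines of isoforms 1 and 2. KLF10 measured 39.5, 45.2 and 42 TPM in parental replicates, 72.6, 79.5 and 77.9 TPM in isoform 1, and 71.9, 85 and 75 TPM in isoform 2. The 6 libraries of these lines lay above all others in the series. The log2 fold changes of 0.85 and 0.86 ± 0.07 (SE, limma adjusted p = 2.53e-12 and 2.75e-12) passed at 1.5-fold. In the other 10 lines they lay between -0.29 (isoform 5, limma adjusted p = 0.00223) and 0.25 (isoform 10, limma adjusted p = 0.00262), and none passed.
KLF11 measured 23.7, 20.6 and 21.3 TPM in parental replicates, 16.9, 15.7 and 14.9 TPM in isoform 1, and 16.1, 15.4 and 13.7 TPM in isoform 2. Its libraries in both lines lay below the parental ones, and the log2 fold changes of -0.44 and -0.51 ± 0.09 (SE, limma adjusted p = 8.48e-05 and 1.42e-05) stayed under 1.5-fold.

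KLF13 was above the parental mean in all 12 lines. Parental replicates measured 19.6, 21.3 and 22.7 TPM, against 42.3, 42.1 and 43 TPM in isoform 1, and 38.6, 42.5 and 39.3 TPM in isoform 2. All 3 libraries lay above the 3 parental ones in 11 of 12 lines, and in isoform 9, at 22.6, 26.1 and 29.3 TPM, the lowest library fell just inside the parental range. The share of all tested genes separated from the parental libraries in this way was not computed, so this count has no background. The log2 fold changes of 0.97 and 0.89 ± 0.09 (SE) in isoforms 1 and 2 passed at 1.5-fold (limma adjusted p = 4.74e-11 and 3.82e-10). Median-of-ratios scaling moved them to 1.11 and 1.01, past 2-fold. In the other 10 lines they ran from 0.26 (isoform 6, limma adjusted p = 0.0456) to 0.57 (isoforms 8 and 10, limma adjusted p = 5.12e-06 and 4.73e-06), all under 1.5-fold on the log2(TPM + 1) scale, the highest just under it.
Since all lines were set against the same 3 parental libraries, the shared direction of KLF13 rests on those libraries as well.

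KLF9, known as a glucocorticoid and thyroid hormone response gene, was the least abundant. Parental replicates measured 2.76, 2.95 and 3.3 TPM and those of isoform 1 5.47, 4.99 and 5.43 TPM, without overlap. This difference, 0.65 ± 0.12 on the log2 scale (SE, limma adjusted p = 1.46e-05), was the only one of its 12 to pass at 1.5-fold, and at this level the pseudocount of 1 understates the difference. KLF16, which has been described as a regulator of metabolic genes, had group means between 50.1 TPM (isoform 5) and 55.4 TPM (isoform 7). Its log2 fold changes lay between -0.06 and 0.08 ± 0.05 (SE), with overlap of libraries in all 12 comparisons and the smallest limma adjusted p at 0.233.

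The lines were then compared directly with each other, by differences that do not use the parental means (the parental libraries add only to the estimate of the spread), to ask whether KLF genes differ between the isoform lines. Each isoform was represented by 1 line, so an isoform, the derivation of its line and its HNF4A level (group means from 614 to 1070 TPM) cannot be told apart here either. The isoforms combine N-terminal and C-terminal forms: by the standard nomenclature, which the labels do not repeat, isoforms 1 to 6 start at the P1 promoter and 7 to 12 at the P2 promoter, isoforms 4 to 6 carry the extra exon 1B, isoforms 2, 5, 8 and 11 have a short C-terminal insertion, and isoforms 3, 6, 9 and 12 have a shortened C-terminus. Of 170 pairs of a KLF gene and a comparison, 10 were called at 2-fold, in 5 of 17 comparisons and for 4 genes: KLF2, KLF4, KLF6 and KLF10. At 1.5-fold 22 pairs were called, and the share of all tested genes called by that rule between lines was not computed. Calls between lines named below are at 2-fold unless 1.5-fold is stated.

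**Figure D3:**
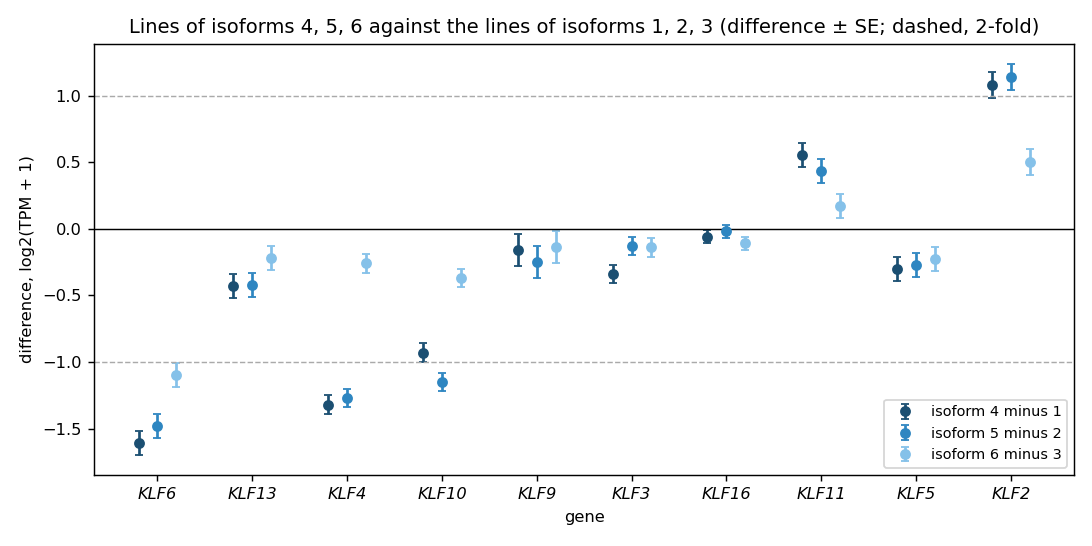
Differences on the log2(TPM + 1) scale (vertical axis, ± SE) of the 10 KLF genes (horizontal axis) between the lines of isoforms 4, 5 and 6 and those of isoforms 1, 2 and 3 with the same C-terminal form. KLF6 lies past the dashed 2-fold line in all 3 comparisons, from -1.61 to -1.10, while KLF16 lies close to 0.

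Most of these calls came from the isoforms with exon 1B set against those without it. In isoform 4 against isoform 1 KLF6 differed by -1.61 ± 0.09 (SE, limma adjusted p = 1.38e-15), KLF4 by -1.32 ± 0.07 and KLF2 by 1.08 ± 0.10, beside a background of 4.49% of all genes called. The KLF2 value was 0.96, no longer called, without the isoform 4 library that had 23 TPM. KLF10 was called lower only at 1.5-fold in isoform 4 against isoform 1, at -0.93. In isoform 5 against isoform 2 KLF6 differed by -1.48, KLF4 by -1.27, KLF10 by -1.15 and KLF2 by 1.14 (limma adjusted p from 8.97e-16 to 4.95e-11), beside a background of 4.03%. In isoform 6 against isoform 3 the 1 call was KLF6 at -1.10 (limma adjusted p = 7.58e-11), with 0.7% of genes called. It was -1.28 without replicate 1 of isoform 3 and -0.99, no longer called, without replicate 3.
KLF2, KLF4, KLF6 and KLF10 thus had non-overlapping libraries between isoforms 5 and 2, with KLF2 higher and the others lower in isoform 5. With smaller differences, the same held for KLF11, higher in isoform 5, and for KLF5, KLF9 and KLF13, lower there. The share of all tested genes without overlap was not computed.

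Of the other N-terminal comparisons only isoform 8 against isoform 2 held a KLF call at 2-fold, KLF2 at 1.07 ± 0.10 (SE, limma adjusted p = 5.85e-10; background 1.54%), which median-of-ratios scaling moved just under 2-fold. KLF2 had 18.7, 18.1 and 18.8 TPM in isoform 8, above every library of isoforms 1, 2, 3, 7, 9, 10 and 11. Isoform 7 against 1, 9 against 3, 10 against 7, 11 against 8 and 12 against 9 had none at 2-fold, with backgrounds of 1.42%, 0.56%, 0.76%, 0.173% and 0.54%. The nearest value among them was KLF5 in isoform 7 against 1, at -0.90 ± 0.09 (SE, limma adjusted p = 4.25e-09). At 1.5-fold KLF5, KLF6 and KLF10 were called lower in isoform 7 against 1, at -0.90, -0.80 and -0.77. They were also lower by that rule in isoform 8 against 2, at -0.72, -0.62 and -0.73, as was KLF4 at -0.61. KLF5 was called higher at 1.5-fold in isoform 12 against 9, at 0.75.
Among the C-terminal comparisons isoform 3 against isoform 1 held 1 call, KLF4 at -1.17 ± 0.07 (SE, limma adjusted p = 3.27e-14; background 1.45%), and it was -1.16 without replicate 1 of isoform 3. KLF4 had 18.1, 18.4 and 18.1 TPM in isoform 3, so it lay just under the parental libraries, in a line where KLF6 was well above them. The comparisons 2 against 1, 5 against 4, 6 against 4, 8 against 7, 9 against 7, 11 against 10 and 12 against 10 had no KLF call at 2-fold, with backgrounds of 0.347%, 0.353%, 0.493%, 0.227%, 0.42%, 0.2% and 0.533%. At 1.5-fold isoform 3 against 1 also held KLF6 at -0.86 and KLF10 at -0.69, and isoform 8 against 7 held KLF2 at 0.68.

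For a statement on isoform classes, the 12 line means were fitted with the line as the unit. KLF6 was lower in isoforms 4-6 than in isoforms 1-3, with a difference of -1.39 ± 0.10 on the log2 scale (SE, limma adjusted p = 9.13e-05), and it was the 1 KLF gene called at 2-fold there, where 1.95% of all genes were. The value stayed between -1.53 and -1.28 when each line was left out in turn. KLF4 at -0.95 ± 0.20, KLF10 at -0.81 ± 0.13 and KLF2 at 0.91 ± 0.18 did not reach 2-fold (limma adjusted p = 0.00764, 0.00313 and 0.00663). Without the isoform 3 line they were -1.21, -1.02 and 1.10, all past 2-fold. Leaving out other lines could also weaken them. KLF4 was -0.78 without the isoform 1 line, and KLF10 was -0.69 and KLF2 0.75 without the isoform 2 line. No KLF gene was called for isoforms 7-9 against 1-3 (background 0.52%), for isoforms 10-12 against 7-9 (0%), for the C-terminal insertion (0%) or for the shortened C-terminus (0.00667%). KLF6 had -0.55 ± 0.10 (SE, limma adjusted p = 0.0134) in the first and -0.40 ± 0.07 (limma adjusted p = 0.102) in the last of these.

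The order of the 13 group means differed between members. For KLF6 it was isoform 1, 2, 10, 11, 7, 3, 8, 9, 12, 4, 5, parental cells and 6. Between neighbours in this order the libraries did not overlap at 4 steps: between 1 and 2, 2 and 10, 12 and 4, and 4 and 5. For KLF4 the order was isoform 1, 2, 7, 11, 8, 10, 9, parental cells, 3, 12, 4, 6 and 5, and isoforms 1 and 2 were not separated from each other but lay clear of isoform 7. For KLF2 it began with isoforms 5, 4, 6 and 8 and ended with 7, 1 and 2, and the lines of isoforms 1 and 2 overlapped. The KLF6 means spanned 1.96 on the log2(TPM + 1) scale, wider than 97.7% of the tested genes. KLF4 spanned 1.46, KLF5 1.26, KLF10 1.15, KLF2 1.14 and KLF13 0.97. KLF9, KLF11 and KLF3 spanned 0.65, 0.62 and 0.55, wider than 70.5%, 68.1% and 61.1% of the tested genes. KLF16 spanned 0.14, wider than only 1.29% of them.

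Across the 13 groups, the KLF6 means had Pearson r of 0.87 with KLF10, 0.86 with KLF4 and 0.75 with KLF13, and of -0.84 with KLF2 and -0.80 with KLF11. With KLF5 r was 0.09. These are descriptions over group means that share libraries and the scaling of TPM. KLF6 was not highest where HNF4A was highest. For HNF4A and KLF6 r was 0.28 over the 13 groups and -0.67 over the 12 lines without the parental cells, and isoform 6, with the highest HNF4A mean of 1070 TPM ± 41.4 (SD, n = 3), had the lowest KLF6 mean of 36 TPM ± 1.43 (SD, n = 3).

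**Figure D4:**
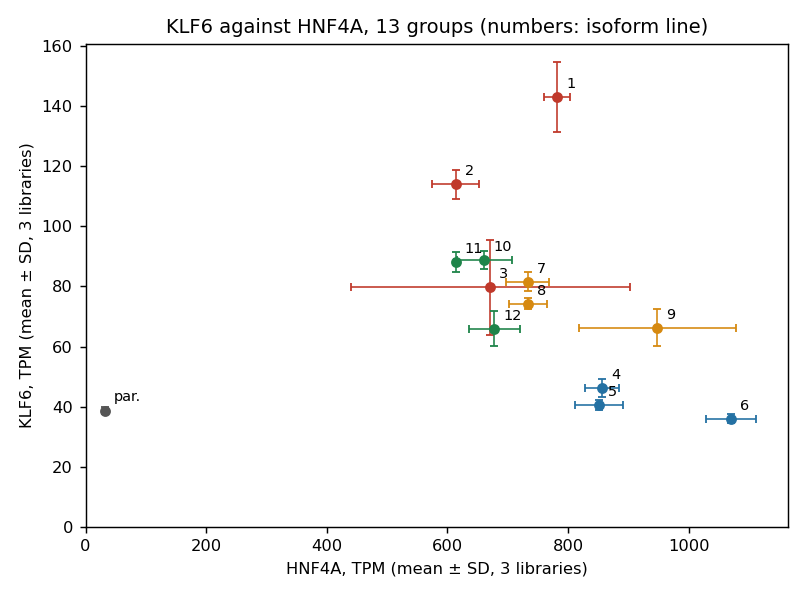
Mean KLF6 level (vertical axis, TPM) against mean HNF4A level (horizontal axis, TPM) in the parental cells (par.) and the 12 isoform lines (numbers), with SD over 3 libraries as bars. The lines of isoforms 4, 5 and 6 lie at the lower right, with HNF4A means of 852 to 1070 TPM and KLF6 means of 36 to 46.3 TPM.

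The genes whose group means followed those of the 3 members with the widest span most closely were taken from 1873 tested genes that span at least 1 on the log2 scale. For KLF6 they included the fatty acid transporter SLC27A4 (r = 0.989) and the interleukin 4 receptor gene IL4R (r = 0.985). SLC27A4 went from 40.1 TPM in the parental cells to 108 TPM in isoform 1. The most opposite genes were the homeobox gene DLX1 (r = -0.98), KLHL42 (r = -0.972) and the potassium channel gene KCNH3 (r = -0.969). KCNH3 went from 16.9 to 5.02 TPM.
For KLF4 the closest were MCL1, an inhibitor of apoptosis (r = 0.968), the urokinase receptor gene PLAUR (r = 0.967) and PQLC2 (r = 0.966), and the most opposite were PCOLCE2 (r = -0.96), the nuclear receptor gene NR5A2 (r = -0.958) and PPP1R14C (r = -0.954). MCL1 went from 119 to 317 TPM in isoform 1. For KLF5 the likeness was looser, with LOC105374003 (r = 0.877), LOC105370507 (r = 0.875) and KBTBD11 (r = 0.855) on one side and SYBU (r = -0.895), BHLHE41 (r = -0.811) and CLDN3 (r = -0.731) on the other.

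Calls of genes outside the 10 are counted at 2-fold, to be read beside the background of each line given above, and named values past 1.5-fold are added. The lists too were chosen with earlier results of these data known, so counts beside the background describe and do not test them. Of the other 8 KLF genes 4 passed the filter, KLF7, KLF12, KLF14 and KLF15, and none was called at 2-fold in any line. KLF14 had the largest difference, -0.80 on the log2 scale in isoform 4 (limma adjusted p = 4.73e-05), past 1.5-fold, and KLF15, known from fasting metabolism, lay between -0.57 and 0.52. The KLF15 mean was 1.2 TPM ± 0.148 (SD, n = 3) without a construct, 0.561 ± 0.0912 in isoform 1 and 2.14 ± 0.107 in isoform 5. Of the 9 SP factor genes 6 passed the filter: SP1, SP2, SP3, SP4, SP5 and SP6. SP6 rose by 2-fold or more in 4 lines, those of isoforms 1, 7, 8 and 10, from 10.7 TPM ± 0.653 (SD, n = 3) to 32.3 ± 2.13 in isoform 1, where it differed by 1.5 ± 0.10 on the log2 scale (SE, limma adjusted p = 3.31e-14). It had 0.80, 0.65 and 0.90 in isoforms 2, 5 and 11, past 1.5-fold. No other SP gene was called at 2-fold: SP1, the ubiquitous member, lay between -0.09 and 0.18, SP2 between -0.18 and 0.08, SP3 between -0.40 and 0.03, SP4 between -0.58 and 0.16, and SP5, a target of Wnt signalling, between -0.78 and 0.17.

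The partners of KLF proteins showed no call at 2-fold. Of 14 tested cofactor and turnover genes the largest differences were those of CTBP1, which lay between -0.55 and 0.12, SIN3A, between -0.53 and 0.03, and the ubiquitin ligase gene FBXW7, between -0.37 and 0.42. Of 13 tested genes of the pathways that act on KLF genes none was called at 2-fold either, and the largest differences were those of the TGF-beta receptor gene TGFBR2 (0.16 to 0.76), CDX2 (-0.67 to 0.02) and MEF2C (-0.64 to 0.19). TGF-beta response genes had 2 calls at 2-fold among 7 tested, both lower and both in isoform 7: ID2, which reached -1.43, and ID3, which reached -1.11. TGIF1 of this list lay between -0.89 and 0.15. Of 4 tested glucocorticoid response genes 1 was called at 2-fold, DUSP1 in isoform 1 at 1.33, while TSC22D3 lay between -0.74 and 0.21 and FKBP5 between -0.62 and 0.14.

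Immediate early genes, which many stimuli induce within minutes, had the most calls at 2-fold of these lists. In isoform 1, 5 of 15 tested were higher by this rule and none lower, where 4.52% of all genes were called, with ATF3 and DUSP1, both at 1.33, among them. FOSB at -0.68, FOSL1 at -0.75 and IER3 at -0.70 lay past 1.5-fold in the other direction there. The list median was 0.5 on the log2 scale beside -0.11 over all tested genes. In isoform 2, with a background of 3.73%, 3 were higher and 2 lower at 2-fold, FOSB at -1.12 and NR4A2 at -1.33, with a median of 0.31 beside -0.09. IER3 was lower in isoform 10, at -1.17. In isoforms 4, 5, 6 and 12 none was called at 2-fold, and ZFP36 in isoform 4 had 0.59, past 1.5-fold. ZFP36, which encodes an mRNA decay factor, rose by 2-fold or more in 8 lines and averaged 11.1 TPM ± 0.514 (SD, n = 3) without a construct, 77.7 ± 5.21 in isoform 1 and 10.2 ± 0.74 in isoform 6. JUN, a subunit of AP-1, did so in 7 lines, from 17.7 TPM ± 1.68 (SD, n = 3) to 96.6 ± 14.5 in isoform 1. FOS, its partner, did so in 3, from 5.12 TPM ± 0.725 (SD, n = 3) to 17.4 ± 3.5 in isoform 1.

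Of 16 tested genes that are described as targets of KLFs, 3 were called at 2-fold in at least 3 lines. CDKN1A, the cell cycle inhibitor p21 that KLF4 and KLF6 are known to activate, rose by that rule in isoforms 1, 2 and 10, from 104 TPM ± 3.29 (SD, n = 3) to 342 ± 18.7, 276 ± 18.5 and 226 ± 8.6. DAPK2, a death-associated kinase gene, rose in 4 lines at 2-fold, from 4.68 TPM ± 0.201 (SD, n = 3) to 18.1 ± 0.655 in isoform 1 and 18.6 ± 0.78 in isoform 2. FGFBP1, a carrier of fibroblast growth factors that KLF5 is known to activate, fell in 12 of 12 lines, from 32.8 TPM ± 3.62 (SD, n = 3) to 4.89 ± 0.528 in isoform 1 and 14.6 ± 2.81 in isoform 6. KRT19 of this list, also an epithelial marker, was called at 2-fold in isoform 7, at 1.00, and lay past 1.5-fold in isoforms 1, 2, 8 and 11, at 0.86, 0.91, 0.92 and 0.83. The median of the list lay between -0.12 and 0.05 over the 12 lines.

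In the authors' deposited tables, all 7 KLF differences called at 2-fold here and all 21 called at 1.5-fold had the same sign and an adjusted p under 0.05. For KLF6 the authors' deposited table gave log2 fold changes of 2.02 in isoform 1, 1.68 in isoform 2 and 1.25 in isoform 3. For KLF4 in isoform 1 the authors' deposited table gave 1.21. The authors' deposited table also gave KLF2 in isoforms 4, 5, 6 and 8 adjusted p-values of 0.0118, 0.00715, 0.0373 and 0.00869, with log2 fold changes from 0.19 to 0.26, where limma gave none under 0.05. For KLF16 the authors' deposited table gave 0.16 in isoform 1 and 0.18 in isoform 7, with adjusted p-values of 0.00461 and 0.0358. Some of the authors' values passed a fold limit that the values here did not. Among them were KLF13 in isoforms 1 and 2, at 1.14 and 1.04, and KLF5 in isoform 2, at 0.70. The authors' values come from another normalisation of the same libraries.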

How the data were processed

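RNA from 39 libraries (13 groups of 3) was measured by poly(A)-selected, strand-keeping RNA-seq. The submitters' processing notes name Trimmomatic 0.36, FastQC 0.11.5, kallisto 0.44.0, DESeq2 1.22.2 and the build GRCh38.p12, with no role or order, and no annotation is given in the sources used here. As deposited by the authors there were 13 tables of 45446 rows, holding TPM per library, summing to between 999972.6 and 999987.7, so each library is scaled to its own total. The 12 line tables also hold, per the file headers, the authors' log2 fold change against the parental cells, its standard error and test statistic (scores), p-values and adjusted p-values, and a mean of normalised counts, a signal with no library depth. These columns deposited by the authors entered no fit.

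The 12 HNF4A rows were summed to 1, leaving 45435. Linear models were fitted on log2(TPM + 1) over the 15003 genes that averaged 1 TPM or more (R 4.3.3; lmFit and eBayes with trend in limma 3.58.1), with 13 group coefficients, 26 residual degrees of freedom and no replicate block. Changes of weakly expressed genes are understated on this scale. No interval for counting error can be had from TPM. P-values were adjusted by Benjamini-Hochberg within each comparison, and calls needed an adjusted p under 0.05 and 2-fold (or 1.5-fold). The scripts were tested on simulated data. Within each group, every library correlated with another at 0.9899 or more across genes.

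The KLF genes and the gene lists were chosen with earlier results of these data known. Genes named are the 10 members, HNF4A, KLF and SP genes that pass the filter, list genes called in at least 3 lines (or the 3 of a list with the largest difference), and for the 3 members with the widest span the 3 genes most and least like them, of which 1 is not reported here. ATF3, FOSB, NR4A2, IER3 and KRT19, and DUSP1 as an immediate early gene, were added after their values were seen. Replicate numbers could be matched to the values of 33 libraries. The titles of the isoform 4 and 5 libraries also carry replicate numbers, but those of each line share 1 library code, so their values could not be matched to a number. Alternatives were other pseudocounts, filters, scaling, fold limits and fits, and leaving out each library or line.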

Additional observations from a re-analysis of the deposited data

Results flagged for a closer look

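In 4 comparisons between lines, 6 pairs of a KLF gene and a comparison had all 3 libraries of one line above every parental library, all 3 of the other line below, and a difference between the lines called at 2-fold. Pairs arranged in this way with smaller differences, such as KLF5 in isoforms 7 and 1 at -0.90, are not listed. The share of all tested genes arranged in this way was not computed, so the number of pairs cannot be set against a background. Each value is a difference on the log2(TPM + 1) scale with a limma adjusted p. KLF4 was above the parental cells in isoform 1 and below in isoforms 3 and 4, with differences of -1.17 (isoform 3 minus 1, adjusted p = 3.27e-14) and -1.32 (isoform 4 minus 1, adjusted p = 2.99e-16). KLF4 was above them in isoform 2 and below in isoform 5, a difference of -1.27 (adjusted p = 8.97e-16). KLF10 had the same arrangement in isoforms 2 and 5, with -1.15 (adjusted p = 3.1e-15). KLF2 was below the parental cells in isoform 2 and above in isoforms 5 and 8, with differences of 1.14 (isoform 5 minus 2, adjusted p = 4.95e-11) and 1.07 (isoform 8 minus 2, adjusted p = 5.85e-10). Of the values on the far side of the parental cells, that of KLF4 in isoform 3 and those of KLF2 in isoforms 5 and 8 had adjusted p-values over 0.05 against them in limma (adjusted p = 0.166, 0.135 and 0.239).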

How the results depend on the processing

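No KLF value that was called changed its sign in any alternative that was run. The 7 KLF calls against the parental cells became 4 with a pseudocount of 5, 8 with one of 0.1 and 9 with median-of-ratios scaling. They became 21 at 1.5-fold and 59 without a minimum fold. The looser 21 calls became 17 with a pseudocount of 5, and 25 with one of 0.1 or with median-of-ratios scaling. When single libraries were left out, the 7 calls ranged from 6 to 8 and the 21 from 21 to 24. The 10 calls between lines then ranged from 9 to 10. The 10 calls between lines became 22 at 1.5-fold. The 1 class call became 2 with median-of-ratios scaling and ranged from 1 to 4 when lines or replicates were left out, the 4 coming without the isoform 3 line. The 50 calls in the gene lists became 125 at 1.5-fold and 453 without a minimum. Over all genes the 2726 calls became 4500 with a pseudocount of 0.1, 1109 with one of 5, 1712 with a mean of at least 5 TPM, 9317 at 1.5-fold and 55221 without a minimum. Median-of-ratios scaling moved the median of all genes in isoform 1 from -0.107 to 0.016. Of the single values against the parental cells, 2001 kept their side of the threshold, 70 gained it and 7 lost it, the losses being KLF6 in isoforms 3 and 7 and KLF4 in isoform 1, the latter also without isoform 1 replicate 1.

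Replicate numbers paired the libraries only weakly. The 165 pairs of libraries with the same number had correlations of their deviations between -0.18 and 0.23, of which 38 were over 0.1. Their median was 0.05, against -0.03 for pairs with different numbers. Still, 29 of 33 libraries were nearest on average to their own number, so libraries with the same number had a small part in common. With the number as a replicate block, fitted on the 33 libraries matched to a number, 7 KLF genes and lines were called at 2-fold and 21 at 1.5-fold. The calls between lines came to 3, since the libraries of isoforms 4 and 5 could not be matched to their numbers and comparisons with these lines could not be fitted. TPM carries no read depth, so what depth limits was not analysed here.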
